A study of Homo sapiens with 6 samples.

Results

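Antisense RNAs are transcripts made from the DNA strand opposite to a neighbouring or overlapping gene, here called the host, whose symbol they carry before the suffix AS and a number. They were followed in T24 cells, a human urothelial (bladder) carcinoma cell line, after silencing TRIM28 with siRNA (siTRIM28, 3 cultures) or after transfection of a non-targeting control siRNA (siNC, 3 cultures). The members were all rows of the count table whose symbol ends in AS and a number and that held 30 or more reads in at least 3 of the 6 libraries. Of 1846 rows with such a name, 394 had no read in any library and 456 met the rule, out of 78932 rows in the table. A gene with the host's symbol was present for 451 of the 456, and these named 444 different hosts. All 6 cultures were labelled as biological replicates of 1 batch, and nothing else about the cells differed between the groups in the labels; neither the time after transfection nor whether 1 siRNA or a mixture was used for these libraries is given in the sources used here.

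Natural antisense RNAs are usually longer than the short regulatory RNAs, are often spliced and polyadenylated, and many start close to the promoter of the host and are transcribed away from it. Individual ones act on chromatin, transcription or mRNA stability of the host or of distant genes, while for most no function is known. TRIM28 (KAP1) is a corepressor that KRAB zinc finger proteins bring to DNA, where it recruits histone methyltransferase and heterochromatin proteins. It is best known for silencing transposable elements, whose long terminal repeats can serve as promoters of long noncoding RNAs.

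TRIM28 was counted 1419, 1393 and 1382 times in the siNC libraries and 130, 96 and 109 times in the siTRIM28 libraries, with no overlap (log2 fold change -3.54 ± 0.07 (SE), edgeR adjusted p = 1.03e-10; two-sided exact permutation p = 0.1, the smallest that 3 against 3 libraries allow). Library totals ran from 11712623 to 14018052 counts. Of the markers of mesenchymal-like tumour cells and epithelium, VIM averaged 1099 and KRT8 103 counts per 1000000 counts (CPM) in siNC. Most urothelial and epithelial markers were absent or nearly so: KRT20 and UPK1B had no count, and KRT5, KRT19, UPK2, UPK3A, CDH1, EPCAM and GATA3 had at most 10 in any library. CD3E had no count and PTPRC at most 4. CD68, listed as a leukocyte marker, averaged 347 CPM in siNC, which goes against its use as one in these cells. Replicates 1 and 2 of siNC differed by little more than counting error (mean chi-square per gene 1.08, where 1 is counting error alone), as did replicates 2 and 3 of siTRIM28 (1.24), against 4.59 to 6.99 for the other pairs within a group. Counts of calls are therefore given also with each close pair summed. In libraries made from whole cultures, fewer cells with a transcript and less of it per cell cannot be told apart.

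The counts had the form of a table that does not keep the strands apart, and every value below has to be read with that. The library kit marks strand, but the setting used for counting is not given in the sources used here. Among genes whose exons lie wholly within the exons of a gene on the other strand, 136 pairs had a mean inner count of at least 10, and in 136 of 136 the outer gene had at least the count of the inner gene in all 6 libraries. MIF-AS1, antisense to the cytokine gene MIF, was counted 2058, 2047 and 1817 times in siNC and 2025, 1827 and 1860 times in siTRIM28. MIF itself was counted 2060, 2045 and 1817 and 2031, 1831 and 1861 times. TUBA1B-AS1, ELN-AS1 and ENTPD1-AS1 also came within 10% of their hosts in all 6 libraries (these 4 were picked after their values were seen). Of 449 members with exons in GENCODE release 29, 386 (86.0%) shared exon bases with the other strand, by a median of 16.1% of their exon length over the 449. Only 85 members had the same exon length in that release as in the count table. Shares of exon bases given here and below therefore describe the release, and not always the exons that were counted. A member's count may therefore hold reads of its host, and the 2 sources cannot be told apart where they overlap.

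Members were mostly expressed at low levels, with a few abundant exceptions. Their mean level over the 6 libraries ran from 1.84 to 862 CPM (scaled by TMM, as all CPM below) with a median of 6.54, while the median of the 405 tested hosts was 39.2 CPM. Per kilobase of exon, the median level was 2.04 CPM for the members with a tested host and 5.46 CPM for those hosts, and in 102 of 411 pairs the antisense RNA was the higher one. Only 27 members averaged over 50 CPM and 181 averaged under 5. The values at the edge of the count rule show how thin the lowest members were. NQO2-AS1, just inside, was counted 30, 24 and 24 times in siNC and 50, 24 and 41 times in siTRIM28, LIX1-AS1 30, 31 and 22 and 29, 31 and 19 times, and HOXA-AS2 26, 26 and 26 and 56, 33 and 30 times. Just outside stood DLG5-AS1, DMTF1-AS1 and KLC2-AS1, each with 29 or more reads in 3 libraries and exactly 29 in the lowest of the 3.

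More members rose than fell after TRIM28 silencing. At an adjusted p under 0.05, 180 of 456 were called by edgeR, 127 higher and 53 lower in siTRIM28, with a median log2 fold change of 0.11 (range -1.44 to 2.42). Over all 18474 genes tested, 41.8% were called, 21.3% higher and 20.5% lower, with a median of 0.02. The share of members called was 39.5%, with 27.9% higher and 11.6% lower. Over the 14681 genes that meet the same count rule, 47.8% were called, 23.3% higher and 24.5% lower. The 3 libraries of each group did not overlap for 215 members (143 higher and 72 lower, 47.1%), against 52.0% of all genes and 57.3% of those that meet the count rule. Long intergenic noncoding RNAs (LINC and a number) under the same count rule were called higher in 44.5% of 137 and lower in 8.03%, and divergent transcripts (suffix DT) in 29.4% and 7.49% of 187. Because the rule used the counts, a member that reached 30 reads in 1 group alone was chosen in part for its difference: 15 did so through siTRIM28 alone (15 called higher) and 10 through siNC alone (6 called lower). Where one of these 25 is named below, its change is given as a description, without a p. The other 431 comprised 112 called higher and 47 called lower. With each close pair summed, 97 of all 456 members, these 25 included, were called higher and 36 lower.

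Replicate 1 of siTRIM28 stood apart from the other 2 in the members. It gave 0.898% of its counts to them, where siTRIM28 replicates 2 and 3 gave 0.7999% and 0.808% and the siNC libraries 0.772% to 0.803%. In 291 of 456 members it lay above the mean of the other 2 siTRIM28 libraries on the log2 scale, by a median of 0.11 over the 456, against 0.00 over all genes tested. This median was 0.19 in members lying inside their host, 0.11 in those starting head to head with it, 0.10 tail to tail and 0.01 in those that hold the host. It was -0.03 in the 31 members whose count exceeded that of all overlapping genes together (described below). Members with over 50% of their exon bases shared with the other strand gave 0.04, and those with no exon base shared 0.05. Without this library 187 members were called, 116 higher and 71 lower, with a median log2 fold change of 0.06. Over all genes tested, calls then numbered 8252 (49.0% higher), against 7721 (51.0% higher) with all libraries. Of the member calls with all libraries, 106 higher and 51 lower ones were also made without replicate 1. What set this library apart was not tested.

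UQCRB-AS1, antisense to a subunit of respiratory complex III, shows the extent of it. It stood at 168, 166 and 150.3 CPM in siNC and at 289, 135 and 146 CPM in siTRIM28, so that replicate 1 alone lay above siNC and the other 2 below (log2 fold change 0.24 ± 0.22 (SE), edgeR adjusted p = 0.414). Without replicate 1 the log2 fold change was -0.20 with an adjusted p of 0.00178, called lower. With all libraries and no filter beyond 1 count in total it was 0.23 with an adjusted p of 9.82e-05, called higher. UQCRB itself stood at 859.9, 867 and 854 CPM in siNC and 920.2, 764 and 753 CPM in siTRIM28, with the groups overlapping, and was called lower without replicate 1 (adjusted p = 6.14e-06). RAD21-AS1 (antisense to a cohesin subunit) and KIZ-AS1 (antisense to a centrosomal protein gene), chosen after their values were seen, had the same form: RAD21-AS1 reached 92.9, 41.3 and 43.2 CPM in siTRIM28 against 47.3, 57.3 and 49.9 in siNC, and KIZ-AS1 5.41, 2.44 and 2.44 against 2.87, 3.24 and 2.58.

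**Figure D1:**
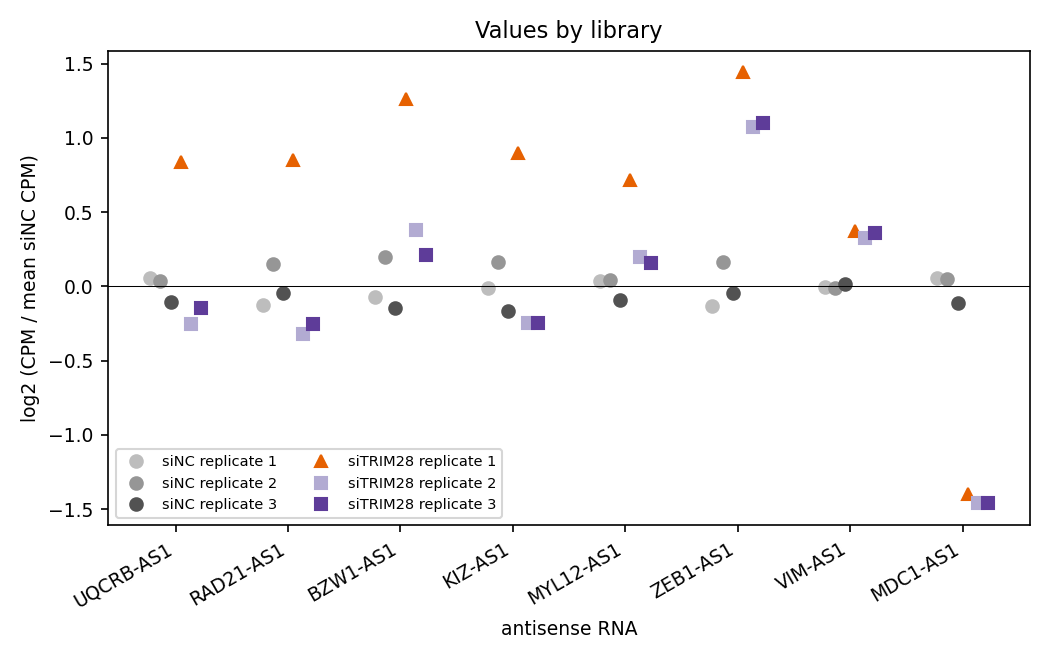
Level of 8 antisense RNAs in each library as log2 of its CPM over the mean siNC CPM (y axis), 1 point per library. In UQCRB-AS1, RAD21-AS1, BZW1-AS1, KIZ-AS1 and MYL12-AS1 siTRIM28 replicate 1 (triangle) lies far above siTRIM28 replicates 2 and 3, while in VIM-AS1 and MDC1-AS1 the 3 siTRIM28 libraries lie together.

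The largest rises were found in antisense RNAs of varied hosts, several of them scarce in the control cells. Of the 8 largest, 6 reached 30 reads in siTRIM28 alone, so that the count rule favoured their rise: UPK1A-AS1, BHLHE40-AS1, HILPDA-AS1, PPP1R26-AS1, SEC23A-AS1 and PDE7B-AS1. UPK1A-AS1, inside the gene for the uroplakin UPK1A of the urothelial surface, stood at 0.933, 0.864 and 0.234 CPM in siNC and 4.56, 3.54 and 2.95 CPM in siTRIM28. All 3 siTRIM28 libraries lay above all siNC libraries (log2 fold change 2.42 ± 0.33 (SE)). UPK1A rose as well (log2 fold change 1.94 ± 0.33 (SE), edgeR adjusted p = 0.000549), and the ratio of the 2 changed by 0.40 ± 0.18 (SE). ADIRF-AS1 was the most abundant of the 8 largest rises in siTRIM28, with 30.4, 31.97 and 30.2 CPM in siNC and 86.9, 95.8 and 92.6 CPM in siTRIM28. The groups were far apart relative to their spread (log2 fold change 1.57 ± 0.06 (SE), edgeR adjusted p = 6.94e-09). Its host ADIRF, a gene named for its part in fat cell formation, went from 7.11, 7.27 and 6.33 CPM to 23.2, 20.04 and 16.2 CPM (log2 fold change 1.52 ± 0.13 (SE), edgeR adjusted p = 3.32e-06), and the difference of the 2 changes was not called (0.08 ± 0.15 (SE), limma adjusted p = 0.782).

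BHLHE40-AS1 had 2.08, 1.800 and 1.56 CPM in siNC and 5.34, 4.88 and 5.22 CPM in siTRIM28 (log2 fold change 1.50 ± 0.17 (SE)), and its host, a transcriptional repressor of the circadian and hypoxia responses, rose (log2 fold change 1.23 ± 0.07 (SE), edgeR adjusted p = 1.37e-07). HILPDA-AS1, which the table places on the same strand as HILPDA, a lipid droplet protein gene, had 1.36, 1.01 and 1.02 CPM in siNC and 2.71, 4.04 and 3.62 CPM in siTRIM28 (log2 fold change 1.59 ± 0.24 (SE)). HILPDA itself rose by 0.95 ± 0.12 (SE), edgeR adjusted p = 5.04e-05, with no overlap of its groups. PPP1R26-AS1 and SEC23A-AS1 had larger log2 fold changes than their hosts, a regulatory subunit of protein phosphatase 1 and a coat protein of vesicles leaving the endoplasmic reticulum. PPP1R26-AS1 stood at 1.58, 1.08 and 1.33 CPM in siNC and 2.85, 3.12 and 4.29 CPM in siTRIM28, and its log2 change exceeded that of PPP1R26 by 0.85 ± 0.22 (SE). SEC23A-AS1 had 1.15, 0.864 and 1.25 CPM in siNC and 2.49, 3.79 and 4.799 CPM in siTRIM28, a log2 change larger than that of SEC23A by 1.41 ± 0.22 (SE). Of the SEC23A-AS1 exon bases 90.4% are shared with the other strand. DLGAP1-AS2 and PDE7B-AS1, the remaining 2, are described with the members whose change exceeds the counts of their overlapping genes.

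**Figure D2:**
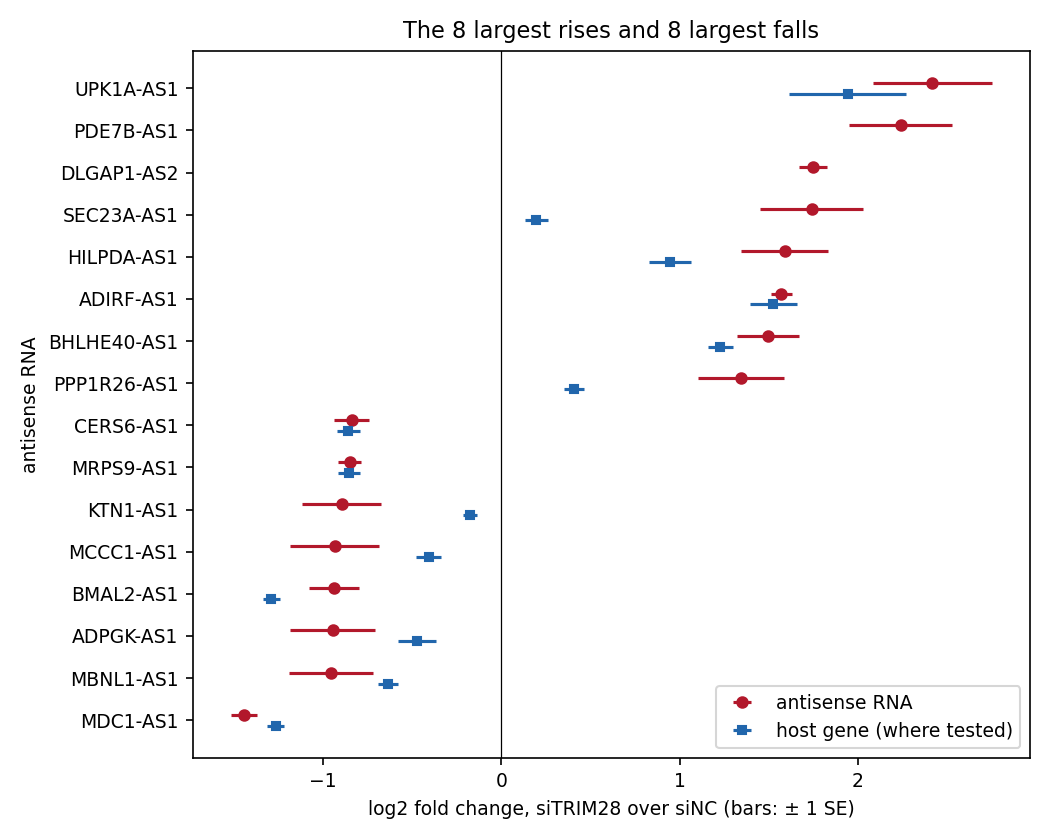
Log2 fold change (x axis, siTRIM28 over siNC, bars ± 1 SE) of the 8 largest rises and 8 largest falls among members (circles) and of their hosts where tested (squares). UPK1A-AS1 is highest at 2.42 and MDC1-AS1 lowest at -1.44, and the hosts lie on the same side of 0 as their antisense RNA in all pairs where the host was tested. Of the rises 6, and of the falls ADPGK-AS1 and KTN1-AS1, reached 30 reads only in the group where they are higher.

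The largest falls went with falls of the host. MDC1-AS1, inside the gene of the DNA damage checkpoint mediator MDC1, stood at 37.1, 37.01 and 33.1 CPM in siNC and 13.5, 12.97 and 12.97 CPM in siTRIM28. All siTRIM28 libraries lay far below siNC (log2 fold change -1.44 ± 0.07 (SE), edgeR adjusted p = 5.81e-08). MDC1 fell from 139.9, 143 and 138 CPM to 57.95, 56.7 and 60.5 CPM (log2 fold change -1.27 ± 0.05 (SE), edgeR adjusted p = 6.63e-09), and 95% of the MDC1-AS1 exon bases are shared with the other strand. MRPS9-AS1, named after a mitochondrial ribosomal protein gene, fell with a log2 fold change of -0.85 ± 0.06 (SE), edgeR adjusted p = 1.2e-06, and MRPS9 with one of -0.85. CERS6-AS1, named after a ceramide synthase gene, gave -0.84 ± 0.10 (SE), edgeR adjusted p = 3.13e-05, and CERS6 -0.86. BMAL2-AS1 (host a circadian transcription factor gene) stood at 7.47, 9.29 and 8.13 CPM in siNC and 4.77, 4.13 and 4.04 CPM in siTRIM28, against 137, 134 and 134 and 53.2, 57.2 and 55.5 for BMAL2. Both fell (log2 fold changes -0.94 and -1.29), and the difference of the changes was not called (0.37 ± 0.14 (SE), limma adjusted p = 0.108).

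The other 4 of the 8 largest falls were scarce. MBNL1-AS1 (host a splicing regulator) gave a log2 fold change of -0.95 ± 0.24 (SE), edgeR adjusted p = 0.00674, and MCCC1-AS1 (host an enzyme of leucine breakdown) -0.93 ± 0.25 (SE), edgeR adjusted p = 0.0103. The remaining 2 reached 30 reads in siNC alone, so that the count rule favoured their fall. ADPGK-AS1 (host an ADP-dependent glucokinase) gave -0.94 ± 0.24 (SE). KTN1-AS1, at 2.66, 3.67 and 3.75 CPM in siNC and 1.85, 1.43 and 2.105 CPM in siTRIM28, gave -0.89 ± 0.22 (SE). KTN1, a membrane anchor for kinesin and far more abundant, fell (log2 fold change -0.17 ± 0.04 (SE), edgeR adjusted p = 0.00401). In all 8 pairs the host was called lower too.

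Where both genes of a pair were called, they mostly changed in the same direction. Both genes were tested in 411 pairs, and in 124 both were called: 75 higher together, 43 lower together and 6 in opposite directions. In 36 pairs the antisense RNA alone was called, in 105 the host alone and in 146 neither. Other pairs of tested genes on opposite strands that overlap or lie within 1000 bases of each other changed in the same direction in 77.9% of the 1518 pairs with both called. Across the 411 pairs the 2 log2 fold changes had a Pearson r of 0.65 and a Spearman rho of 0.65. This is a description across genes that share libraries and reads, and co-movement from shared reads and from shared change cannot be told apart in these counts. The r was 0.82 in the 91 pairs with the antisense RNA inside the host, 0.79 in 98 tail to tail pairs, 0.60 in 181 head to head pairs and 0.21 in 38 pairs where the antisense RNA holds the host. The median share of exon bases on both strands was 32.0%, 23.5%, 12.6% and 12.7% in the same order.

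The ratio of antisense RNA to host was tested directly, as the difference of log2 CPM within a library. It was called in 57 of 411 pairs (13.9%, 45 with a rise of the antisense RNA relative to the host and 12 with a fall), against 21.2% of all 7678 pairs of genes on opposite strands tested alike. With each close pair summed 29 were called, and with 1 library left out 35 (without siNC replicate 1) to 68 (without siTRIM28 replicate 1). CDC42EP3-AS1 and its host moved in opposite directions. The antisense RNA stood at 13.7, 11.95 and 13.1 CPM in siNC and 19.9, 22.6 and 22.3 CPM in siTRIM28, with no overlap (log2 fold change 0.74 ± 0.08 (SE), edgeR adjusted p = 2.39e-05). CDC42EP3, an effector of the small GTPase CDC42 that shapes the actin and septin skeleton, went from 4.45, 4.61 and 4.46 CPM to 2.99, 2.95 and 2.53 CPM (log2 fold change -0.67 ± 0.16 (SE), edgeR adjusted p = 0.00482). The ratio changed by 1.38 ± 0.16 (SE), limma adjusted p = 0.000396.

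The other opposite pairs included those of ASH1L, KMT2E, GTF3C2 and TDRKH. ASH1L-AS1, which reached 30 reads in siTRIM28 alone, had 1.87, 2.02 and 1.88 CPM in siNC and 3.84, 4.63 and 4.72 CPM in siTRIM28 (log2 fold change 1.18 ± 0.18 (SE)). ASH1L, a histone H3 lysine methyltransferase, had 58.7, 64.2 and 62.7 CPM in siNC and 46.8, 55.1 and 54.2 CPM in siTRIM28, with the groups apart (log2 fold change -0.25 ± 0.07 (SE), edgeR adjusted p = 0.0142), a call that was lost without siNC replicate 2 (adjusted p = 0.0607). KMT2E-AS1 rose (12.4, 13.7 and 15.8 CPM in siNC, 20.1, 22.1 and 23.8 CPM in siTRIM28, log2 fold change 0.66 ± 0.10 (SE), edgeR adjusted p = 0.000192) while KMT2E fell (log2 fold change -0.24 ± 0.04 (SE), edgeR adjusted p = 0.000637). GTF3C2-AS2, beside a subunit gene of the RNA polymerase III factor TFIIIC, changed relative to its host by 0.81 ± 0.10 (SE), limma adjusted p = 0.000599. TDRKH-AS1, beside a Tudor domain gene of the piRNA pathway, did so by 1.11 ± 0.21 (SE), limma adjusted p = 0.00452, though its own rise was not called without siNC replicate 2 (adjusted p = 0.119), without siTRIM28 replicate 3 (0.112), with DESeq2 (0.0788) or with the close pairs summed (0.0534). These 4 antisense RNAs start head to head with the host.

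In the 2 largest falls of a ratio the host rose. RAET1E, a ligand of the NKG2D receptor of natural killer cells, rose from 2.66, 2.23 and 2.74 CPM to 12.8, 12.9 and 14.2 CPM (log2 fold change 2.39 ± 0.13 (SE), edgeR adjusted p = 9.27e-08). RAET1E-AS1, which spans it on the other strand, stood at 1.94, 2.66 and 2.42 CPM in siNC and 1.64, 1.85 and 2.61 CPM in siTRIM28, with overlapping groups, and the ratio changed by -2.53 ± 0.22 (SE), limma adjusted p = 8.67e-05. DACT3, an inhibitor of Wnt signalling, rose from 0.215, 0.936 and 0.625 CPM to 2.63, 2.19 and 2.53 CPM, and DACT3-AS1 had 4.09, 3.46 and 3.75 CPM in siNC and 3.99, 5.47 and 5.05 CPM in siTRIM28. Its ratio changed by -1.60 ± 0.42 (SE), limma adjusted p = 0.0254, a call that was lost without siNC replicate 3 or siTRIM28 replicate 1 or 3 (adjusted p of 0.0505 to 0.0719), and with variances moderated without a trend (0.061). DACT3-AS1 itself was called higher without siTRIM28 replicate 1 (edgeR adjusted p = 0.0338).

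Among pairs that moved together with large changes of both genes, PHLDA1-AS1 lies inside PHLDA1, a growth and apoptosis regulator. It rose from 52.1, 49.7 and 47.6 CPM to 93.4, 100.4 and 97.6 CPM (log2 fold change 0.96 ± 0.06 (SE), edgeR adjusted p = 1.37e-07). PHLDA1 changed by 1.02 ± 0.05 (SE), edgeR adjusted p = 7.86e-08 on the same scale, and 97.2% of the exon bases of PHLDA1-AS1 are on both strands. The remaining pairs of this kind were UPK1A-AS1, ADIRF-AS1, BHLHE40-AS1 and MDC1-AS1, given above.

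Calls were also counted by the position of the antisense RNA relative to its host. Of 191 head to head members 55 were called higher and 16 lower (median log2 fold change 0.17), and of 106 tail to tail members 26 higher and 21 lower (0.03). Of 94 inside the host 25 were higher and 9 lower (0.15), and of 55 that hold the host 16 higher and 6 lower (0.09). These counts include members that reached 30 reads in 1 group alone, whose change the count rule favoured. Head to head examples are ASH1L-AS1 and BHLHE40-AS1 through siTRIM28 and ADPGK-AS1 through siNC. Of all genes tested, 21.3% were called higher and 20.5% lower, and of genes that meet the count rule 23.3% and 24.5%. Without siTRIM28 replicate 1 the head to head members numbered 48 higher and 27 lower with a median of 0.10, those inside the host 26 and 15 with 0.08, and those that hold the host 17 and 6 with 0.03. The tail to tail members then numbered 21 higher and 21 lower with a median of -0.02. With all libraries, 27 tail to tail members lay higher and 27 lower with no overlap of the groups (50.9% together). This share was no higher than the 52.0% of all genes tested and the 57.3% of those that meet the count rule. No difference between arrangements was tested.

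**Figure D3:**
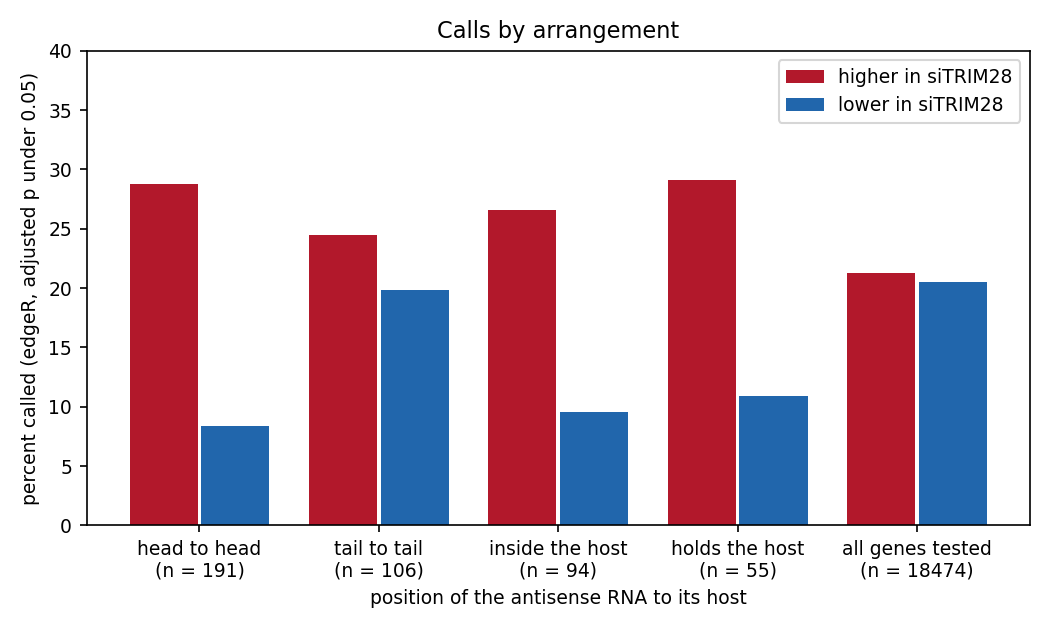
Percent of members called higher and lower in siTRIM28 (y axis) by position to the host, beside all genes tested. Head to head members show 28.8% higher and 8.38% lower, tail to tail members 24.5% and 19.8%, and all genes 21.3% and 20.5%.

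For 31 members the count exceeded the summed counts of all genes of the table whose spans overlap them, in all 6 libraries, so that part of it must come from reads that none of those genes holds. Reads from the introns of an overlapping gene are not in that gene's count and are not covered by this bound. The subset was formed after the values were seen and is given without a test of its own: 12 were called higher and 3 lower by edgeR. The 48.4% called compares with 41.8% of all genes tested and 47.8% of those that meet the count rule. Among the 12 is EPCIP-AS1, which reached 30 reads in siTRIM28 alone. In 10 of the 456 members the lowest siTRIM28 value after subtracting the overlapping genes was still above the highest siNC value without any subtraction, and in 2 the reverse held. These 12 are shown by library in the plot of changes larger than overlapping genes could hold. They were picked by the gap between their groups, so the edgeR p-values given for them below are not separate evidence of a change.

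**Figure D4:**
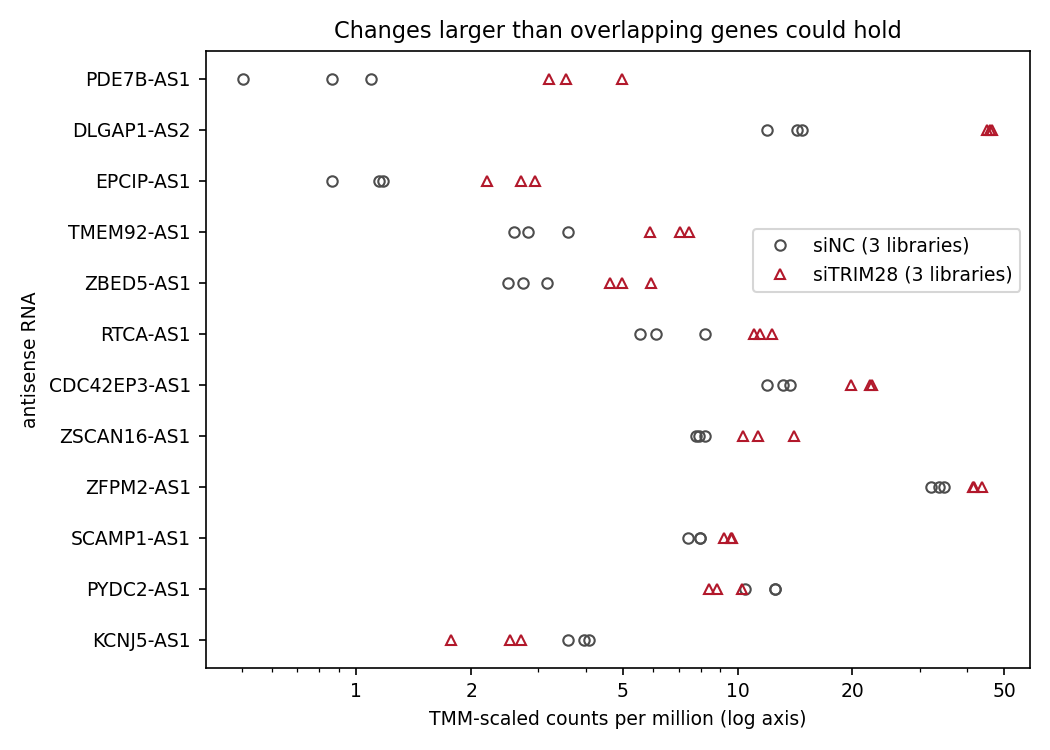
TMM-scaled CPM (x axis, log scale) of the 12 members whose change exceeds what overlapping genes could hold, with 3 siNC libraries as circles and 3 siTRIM28 libraries as triangles. The 10 rises are at the top, and PYDC2-AS1 and KCNJ5-AS1 at the bottom fell. The 12 were picked by the gap between their groups, so the lack of overlap follows from the choice.

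DLGAP1-AS2 changed most clearly of these. It lies at chr18:3594114-3610094, strand + (GRCh38) inside DLGAP1, a postsynaptic scaffold gene that stayed under 0.5 CPM in all libraries. It stood at 14.8, 11.95 and 14.3 CPM in siNC and 45.2, 46.6 and 46.1 CPM in siTRIM28, with the 3 siTRIM28 libraries within 2 CPM of each other and far above siNC (log2 fold change 1.75 ± 0.08 (SE), edgeR adjusted p = 2.84e-08). Less the counts of its overlapping genes, at least 20.9, 20.9 and 21.6 CPM remained in siTRIM28. PDE7B-AS1, at chr6:135991936-136225668, strand -, had 0.862, 0.504 and 1.09 CPM in siNC and 3.204, 4.97 and 3.54 CPM in siTRIM28 (log2 fold change 2.24 ± 0.29 (SE)). Its host, a cAMP phosphodiesterase gene, stayed under 0.6 CPM. TMEM92-AS1 (chr17:50280873-50290245, strand -) went from 3.59, 2.59 and 2.81 CPM to 7.48, 7.07 and 5.89 CPM (log2 fold change 1.18 ± 0.17 (SE), edgeR adjusted p = 0.000181), and EPCIP-AS1 (chr21:32772100-33019751, strand +) from 1.15, 0.864 and 1.17 CPM to 2.21, 2.69 and 2.95 CPM (log2 fold change 1.29 ± 0.24 (SE)). PDE7B-AS1 and EPCIP-AS1 reached 30 reads in siTRIM28 alone. The hosts of these members were near 0 and were not tested, as was the case for 40 members of the 451.

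The zinc finger gene ZSCAN16 was also nearly silent, at no more than 0.142 CPM, while ZSCAN16-AS1 had 7.898, 7.78 and 8.21 CPM in siNC and 10.3, 14.1 and 11.3 CPM in siTRIM28 (log2 fold change 0.57 ± 0.12 (SE), edgeR adjusted p = 0.00278). ZFPM2-AS1, antisense to a cofactor of GATA factors, rose from 33.8, 34.9 and 32.1 CPM to 41.6, 43.9 and 41.3 CPM (log2 fold change 0.33 ± 0.06 (SE), edgeR adjusted p = 0.00112). ZFPM2 had 6.17, 6.05 and 6.41 CPM in siNC and 5.77, 4.799 and 4.63 CPM in siTRIM28, and the ratio rose by 0.62 ± 0.14 (SE), limma adjusted p = 0.0112, not called without siNC replicate 3 (0.051) or with the close pairs summed (0.078). The falls were smaller. KCNJ5-AS1, beside a potassium channel gene with no more than 0.234 CPM, went from 3.59, 3.96 and 4.06 CPM to 2.71, 1.77 and 2.53 CPM (log2 fold change -0.72 ± 0.19 (SE), edgeR adjusted p = 0.0101). PYDC2-AS1 went from 12.6, 12.5 and 10.5 CPM to 8.83, 8.42 and 10.3 CPM (log2 fold change -0.37 ± 0.11 (SE), edgeR adjusted p = 0.0175), its lowest siNC library lying close to its highest siTRIM28 library, and PYDC2 had no count. This call was lost without siNC replicate 1 or 2 or siTRIM28 replicate 2 (adjusted p of 0.0644 to 0.0824), with DESeq2 (0.0578) and with the close pairs summed (0.0706).

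Among the 31, 4 that rose start close to the host's start and run away from it. Their start regions are printed because the annotated starts of both genes lie in 1 window; where transcription began in these cells was not measured. The sequences come from RefSeq (GRCh38.p14), run 5′ to 3′ on the strand of the antisense RNA from 250 bases before its start to 50 after it, and capitals mark the bases between the 2 starts. The windows are chr2:8681814-8682113 (minus strand) for ID2-AS1, chr1:100266125-100266424 (minus) for RTCA-AS1, chr5:78360492-78360791 (minus) for SCAMP1-AS1 and chr11:10857967-10858266 (plus) for ZBED5-AS1.
ID2-AS1: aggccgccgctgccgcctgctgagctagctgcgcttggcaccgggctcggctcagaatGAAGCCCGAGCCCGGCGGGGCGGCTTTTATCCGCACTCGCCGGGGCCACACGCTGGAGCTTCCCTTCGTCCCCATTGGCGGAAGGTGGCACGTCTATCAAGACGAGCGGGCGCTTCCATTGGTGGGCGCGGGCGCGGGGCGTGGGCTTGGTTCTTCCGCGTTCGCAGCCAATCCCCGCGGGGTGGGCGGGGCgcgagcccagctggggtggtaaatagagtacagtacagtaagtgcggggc
RTCA-AS1: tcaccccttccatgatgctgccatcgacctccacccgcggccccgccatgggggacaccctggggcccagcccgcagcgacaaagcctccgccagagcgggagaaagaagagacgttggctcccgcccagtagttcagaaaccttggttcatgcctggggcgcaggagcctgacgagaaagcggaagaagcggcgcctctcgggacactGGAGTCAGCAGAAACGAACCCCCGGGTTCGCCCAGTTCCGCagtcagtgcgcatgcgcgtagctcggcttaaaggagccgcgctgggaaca
SCAMP1-AS1: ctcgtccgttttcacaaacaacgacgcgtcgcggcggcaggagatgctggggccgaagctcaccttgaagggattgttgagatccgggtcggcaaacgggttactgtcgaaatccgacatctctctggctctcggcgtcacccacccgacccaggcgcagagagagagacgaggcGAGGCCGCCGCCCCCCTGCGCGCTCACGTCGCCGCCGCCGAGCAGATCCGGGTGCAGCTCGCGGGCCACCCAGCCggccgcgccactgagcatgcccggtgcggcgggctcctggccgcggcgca
ZBED5-AS1: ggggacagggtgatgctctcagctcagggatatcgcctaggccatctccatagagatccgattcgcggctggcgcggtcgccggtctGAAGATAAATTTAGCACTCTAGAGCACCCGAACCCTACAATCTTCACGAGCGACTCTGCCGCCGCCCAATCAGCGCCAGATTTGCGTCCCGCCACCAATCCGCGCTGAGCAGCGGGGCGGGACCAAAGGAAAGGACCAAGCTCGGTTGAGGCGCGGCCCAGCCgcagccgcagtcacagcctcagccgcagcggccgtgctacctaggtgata

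The starts lie 193 bases apart for ID2-AS1, 42 for RTCA-AS1, 76 for SCAMP1-AS1 and 164 for ZBED5-AS1, and the windows hold 69.0%, 65.0%, 69.7% and 62.7% G and C. The motif CCAAT, searched on both strands, occurs 3 times between the starts of ID2-AS1 and ID2, 2 times between those of ZBED5-AS1 and ZBED5, and not in the other 2 gaps. A RefSeq window was found for 330 members. In 72 of 292 with a distance the host started upstream and faced away within 1000 bases, at a median of 142 bases. These 72 comprised 24 called higher and 6 lower. They include ZNF674-AS1 and KTN1-AS1, which reached 30 reads in 1 group alone. The 41.7% called (33.3% higher and 8.33% lower) compares with 41.8% of all genes tested (21.3% and 20.5%). Of genes that meet the count rule, 47.8% were called (23.3% and 24.5%). Over the 388 windows of members the median GC content was 63.2%, against 58.7% over all 35116 windows. CCAAT on either strand was in 29.6% of member windows and 34.6% of all windows, and TATAAA on either strand in 5.7% and 11.5%. A match here is a description of letters, not of a bound site.

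ZBED5-AS1 stood at 2.73, 3.17 and 2.501 CPM in siNC and 5.91, 4.63 and 4.97 CPM in siTRIM28 (log2 fold change 0.89 ± 0.17 (SE), edgeR adjusted p = 0.00139). Its host ZBED5, a gene derived from a DNA transposon, rose by 0.45 ± 0.10 (SE), edgeR adjusted p = 0.0039 on that scale. RTCA-AS1 rose from 5.53, 8.21 and 6.097 CPM to 11.5, 11.03 and 12.3 CPM (log2 fold change 0.81 ± 0.14 (SE), edgeR adjusted p = 0.000623), and RTCA, an RNA 3′-phosphate cyclase gene, by 0.31 ± 0.07 (SE), edgeR adjusted p = 0.00335. In neither pair was the change of the ratio called (0.41 ± 0.21 (SE), limma adjusted p = 0.22 for ZBED5-AS1 and 0.50 ± 0.18 (SE), limma adjusted p = 0.0758 for RTCA-AS1), though that of RTCA-AS1 was without siNC replicate 2 (0.0113). ID2-AS1 had 2.66, 2.88 and 2.81 CPM in siNC and 5.05, 3.96 and 5.98 CPM in siTRIM28 (log2 fold change 0.84 ± 0.18 (SE), edgeR adjusted p = 0.00316), and ID2, an inhibitor of helix-loop-helix transcription factors, had 1.58, 1.296 and 1.41 CPM and 1.78, 1.77 and 3.03 CPM (log2 fold change 0.60 ± 0.27 (SE), edgeR adjusted p = 0.0933). SCAMP1-AS1, overlapped by no gene of the table, went from 7.97, 7.42 and 7.97 CPM to 9.18, 9.598 and 9.68 CPM (log2 fold change 0.28 ± 0.10 (SE), edgeR adjusted p = 0.0394), a call lost without any 1 siNC replicate or siTRIM28 replicate 2 or 3 (adjusted p of 0.0702 to 0.153), with DESeq2 (0.212), with the close pairs summed (0.131), with the replicate block (0.0597) and with no filter beyond 1 count in total (0.125). SCAMP1, a membrane protein gene of the secretory pathway, had 21.6, 20.2 and 20.01 CPM and 19.01, 20.5 and 21.5 CPM, with overlapping groups.

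Of a list of 53 antisense RNAs with published functions, 27 were members, 10 of them called higher and 5 lower (median log2 fold change 0.05). That is 37.0% higher and 18.5% lower, against 21.3% and 20.5% of all genes tested. The shares were 23.3% and 24.5% of genes that meet the count rule, and 27.9% and 11.6% of all members. ZEB1-AS1 changed most. It starts head to head with ZEB1, a transcription factor of the epithelial to mesenchymal transition, and stood at 7.04, 8.64 and 7.504 CPM in siNC and 21.00, 16.2 and 16.6 CPM in siTRIM28, with no overlap (log2 fold change 1.22 ± 0.12 (SE), edgeR adjusted p = 9.73e-06). ZEB1 had 399, 417 and 429 CPM in siNC and 417, 445 and 432 CPM in siTRIM28 with overlapping groups, and the ratio rose by 1.14 ± 0.14 (SE), limma adjusted p = 0.000536. SBF2-AS1 rose from 12.9, 12.96 and 12.8 CPM to 18.3, 19.4 and 19.3 CPM while SBF2 did not pass the test, and its ratio rose by 0.60 ± 0.09 (SE), limma adjusted p = 0.0016. VIM-AS1, beside the intermediate filament gene VIM, went from 289.99, 289 and 294 CPM to 377, 365 and 374 CPM (log2 fold change 0.35 ± 0.04 (SE), edgeR adjusted p = 1.47e-05), and VIM changed by 0.33. Further rises included ITGB2-AS1 (log2 fold change 0.71, host a leukocyte integrin), HOXA-AS2 (0.70), ZNF674-AS1 (0.63), GABPB1-AS1 (0.50), HIF1A-AS3 (0.44) and THAP9-AS1 (0.31). HOXA-AS2 and ZNF674-AS1 reached 30 reads in siTRIM28 alone, so that the count rule favoured their rise. Both are among the 10 called higher and so within the 37.0%. Their calls were lost with DESeq2, with the close pairs summed and without single libraries of either group.

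The 5 falls of this list were in CERS6-AS1, NOP14-AS1 (log2 fold change -0.40), PXN-AS1 (-0.38), FGD5-AS1 (-0.37) and TMPO-AS1 (-0.35). Except for FGD5, which had at most 1 read in any library, their hosts fell too: NOP14, a ribosome biogenesis factor (-0.36), PXN, the focal adhesion protein paxillin (-0.52), and TMPO, a protein of the inner nuclear membrane (-0.35). FGD5-AS1 itself stood at 50.6, 50.5 and 51.2 CPM in siNC and 39.1, 41.00 and 37.6 CPM in siTRIM28. No call was made for 12, with log2 fold changes of -0.01 in OIP5-AS1, -0.01 in MCM3AP-AS1, 0.02 in TTN-AS1, 0.05 in PCBP1-AS1, -0.06 in MAPKAPK5-AS1, -0.12 in AFAP1-AS1, -0.15 in KDM4A-AS1, 0.18 in NNT-AS1, -0.20 in SREBF2-AS1, 0.23 in PTOV1-AS1, 0.40 in RBM5-AS1 and -0.45 in PRKCQ-AS1. Without siTRIM28 replicate 1 AFAP1-AS1 was called lower (edgeR adjusted p = 0.0443) and RBM5-AS1 higher (0.0412), and without siNC replicate 3 PRKCQ-AS1 was called lower (0.0361).

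The members with the highest CPM included TUBA1B-AS1, VIM-AS1, MYL12-AS1, PLCG1-AS1 and UQCRB-AS1. TUBA1B-AS1, with 80.2% of its exon bases on both strands, fell from 1017, 975 and 991 CPM to 726, 749.6 and 717 CPM (log2 fold change -0.44 ± 0.04 (SE), edgeR adjusted p = 1.89e-06), beside a change of -0.52 in the alpha-tubulin gene TUBA1B. MYL12-AS1, for which no row carries the host's symbol, had 188, 189.5 and 173 CPM in siNC and 301, 211 and 204 CPM in siTRIM28. Its groups did not overlap, but siTRIM28 replicate 1 lay well above the other 2, and the call (log2 fold change 0.38 ± 0.12 (SE), edgeR adjusted p = 0.0213) was lost without siNC replicate 1 (adjusted p = 0.0588) or 3 (0.0816) and with DESeq2 (0.117). PLCG1-AS1, beside the phospholipase gene PLCG1, had 169, 174 and 168 CPM and 235, 181 and 184 CPM, and its call (log2 fold change 0.23 ± 0.08 (SE), edgeR adjusted p = 0.0421) was lost without any one siNC replicate (0.0818 to 0.121) and with the close pairs summed (0.0794).

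Grouped by the kind of host, members named after zinc finger genes numbered 17, with 8 called higher and 0 lower by edgeR and a median log2 fold change of 0.17. The 47.1% called compares with 41.8% of all genes tested and 47.8% of those that meet the count rule. Among the 8 is ZNF674-AS1, which reached 30 reads in siTRIM28 alone, so that the count rule favoured its rise. The groups did not overlap in 9 that were higher and 2 that were lower (64.7%). This was so for 52.0% of all genes tested and 57.3% of those that meet the count rule. At an unadjusted p under 0.05 the fallers also numbered 0, and DESeq2 called 5 higher and 0 lower. The calls included ZNF433-AS1 (0.64), ZNF529-AS1 (0.64), ZSCAN16-AS1 (0.57) and ZBTB47-AS1 (0.53), whereas ZKSCAN7-AS1 (-0.27, adjusted p = 0.294) was not called. A list of immune and interferon hosts, defined by the first letters of the symbol, held 3 members, and these were called higher: ITGB2-AS1, HLA-F-AS1 (0.67) and MICA-AS1 (0.70). It missed other members with a host of immune function, chosen here after their values were seen: TICAM2-AS1 was called lower (-0.71), and MIF-AS1 (0.06), RAET1E-AS1 (-0.22), CD27-AS1 (0.06) and TIRAP-AS1 (-0.22) were not called. Transporter and pump hosts gave 3 higher and 3 lower of 16, with SLC4A8-AS1 at 0.67 and SLC8A1-AS1, which reached 30 reads in siNC alone, at -0.82. Cytoskeleton and adhesion hosts gave 2 higher and 2 lower of 8, replication and repair hosts 2 higher and 1 lower of 8, and RNA processing hosts 1 higher (RBM25-AS1, 0.52) and 1 lower (NOP14-AS1) of 11. Of the 3 HOX antisense RNAs only HOXA-AS2 was called, and it reached 30 reads in siTRIM28 alone, so that the count rule favoured its rise. These groups are small, overlap in ITGB2-AS1 and were not tested as sets.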

How the data were processed

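Per the labels, poly(A) RNA of 6 T24 cultures was made into stranded libraries. The submitters' processing notes name fastp 0.23.1, STAR 2.7.6a, featureCounts and GRCh38; the annotation release and strand setting are not given in the sources used here. The authors deposited a table of raw read counts by gene (11712623 to 14018052 per library), which was used, and a list of changed genes with their own RPKM values, fold changes and p-values, which was not.

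TMM scaling and the quasi-likelihood test of edgeR 4.0.16 were applied to the 18474 genes with at least 10 counts in 3 libraries, with Benjamini-Hochberg adjustment. Ratios of 2 genes were tested with limma 3.58.1 on log2 CPM (prior count 2). The chi-square between libraries used genes with a summed count of at least 20. Tested on simulated data, the fit recovered 176 of 200 genes given a log2 change of 0.8 among 18474, and 93 of 164 changed pairs among 7365. It also called 15 unchanged genes and 4 unchanged pairs. In the data themselves 7721 genes were called, so these rates need not hold there. Arrangements come from the coordinates of the count table, and shared exon bases from GENCODE 29. If cultures were not grown separately, p-values measure technical spread. Depth limits low members. The SE of each change comes from the fit and reflects spread between libraries as well as counting error.

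CPM are counts per 1000000. Genes named were TRIM28, the 8 largest called rises and falls without overlap of groups, the 6 highest members, the 5 largest pairs in each direction class, the 5 largest called ratio changes, a list of well studied RNAs and the rows next to the count rule, with their hosts; a few of them are not reported here. The members and lists were chosen with earlier results of these data known. Same-numbered cultures did not deviate together (correlations -0.01 to 0.05). Alternatives were scaling by RLE, by upper quartile or by totals, limma-voom, DESeq2 1.42.0, other filters, a replicate block, leaving out each library, summing the close pairs, other prior counts, variances moderated without a trend and a threshold of 0.01.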

Additional observations from a re-analysis of the deposited data

How the results depend on the processing

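TRIM28 stayed lower under every alternative run, and the antisense RNAs' median log2 fold change stayed above 0, between 0.06 (without siTRIM28 replicate 1) and 0.14 (upper-quartile scaling). At an adjusted p under 0.01, 117 antisense RNAs were called, 29 of them lower, and 26 ratios. With the close pairs summed, 29 ratios were called. Leaving out 1 library gave 140 to 187 antisense RNAs, 101 to 125 higher, 39 to 71 lower, 35 to 68 ratios, 192 to 247 hosts and 6347 to 8252 genes of all. DESeq2 called 128 antisense RNAs. UQCRB-AS1 ran from -0.20 (without siTRIM28 replicate 1, a reversal of 0.24) to 0.43 (without siTRIM28 replicate 2). The share of antisense calls that were higher was 62.0% without that library, against 70.6%, and 74.5% under upper-quartile scaling, which moved the median of all genes from 0.02 to 0.05. The replicate numbers share only a number: with the replicate block 190 antisense RNAs (128 higher, 62 lower) and 53 ratios were called, and no sample correlated clearly with its own number. DESeq2 and limma-voom were not run on ratios. Members near 30 reads carry wide counting error.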
